A study of Homo sapiens with 5 samples.

Results

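The genes described here encode the machinery that copies DNA in S phase, together with the enzymes that supply its nucleotides and the regulators that start it. They were chosen by name, as 41 listed genes of origin firing, DNA synthesis and nucleotide supply, and all 41 were found among the 58812 gene identifiers of the read count table. They comprised 7 MCM genes, 5 genes of GINS and CDC45, 4 licensing factors, 5 genes of the sliding clamp and its loader, 8 polymerase and primase subunits, 4 genes of strand joining and single-strand binding, 4 enzymes of nucleotide supply and 4 S-phase regulators.

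The counts came from RNA sequencing of C4-2B, a human line of metastatic castration-resistant prostate cancer. HOXB13, a homeodomain transcription factor of prostate luminal cells, carried alanine in place of lysine 13 (K13A) in clone C4K13A, with 2 libraries, and in clone C5K13A, with 1 library; the parental line had 2 libraries. All 5 samples were grown in C4-2B media, and total RNA was depleted of ribosomal RNA before sequencing. Each mutant is a clone of its own, the 3 mutant libraries come from 2 clones, and nothing in the labels says that libraries of a group came from separate cultures, so a p-value here speaks of the spread among the deposited libraries, part of which may be technical.

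Before S phase, the origin recognition complex with CDC6 and CDT1 loads the MCM2 to MCM7 ring onto DNA as an inactive helicase. At S-phase entry CDC45 and the GINS complex join the ring to form the active helicase, polymerases alpha, delta and epsilon copy the strands, and the PCNA clamp, placed by replication factor C, holds polymerase delta on DNA. Most of these genes are transcribed by E2F factors, which kinases bound to cyclins D and E release from the retinoblastoma protein late in G1, so their mRNAs are commonly used as markers of proliferating cells.

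Library totals lay between 43190276 and 48442286 counts in the K13A libraries and were 57282373 and 51978974 in the parental libraries. All 9 luminal prostate markers, KLK3 and HOXB13 among them, reached at least 1 CPM in every library (counts of a gene relative to the library's total), with sums of 5082 to 6321 CPM in K13A and 5139 to 6801 CPM in parental libraries. Of 10 markers of immune, endothelial, stromal and basal cells, 7 were under 1 CPM in every library and CD3E was at 0, and the sum of all 10 was 8.18 to 12.8 CPM in K13A and 14.5 to 15.2 CPM in parental libraries. Residual mitochondrial ribosomal RNA differed between libraries, at 65.4, 353 and 658 CPM in C4K13A library 1, C4K13A library 2 and C5K13A, and at 29.03 and 1723 CPM in parental libraries 1 and 2. A gene count does not read the K13A codon, so the level of HOXB13 does not check the genotype. In the sentences that follow, values are CPM scaled by TMM factors (trimmed mean of M values), K13A values stand in the order C4K13A library 1, C4K13A library 2, C5K13A, and parental values in the order library 1, library 2.

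The replication genes stood higher in the K13A libraries than in the mean of the parental line, by a median of 0.39 on the log2 scale, and none passed the test. The fitted log2 fold change of K13A over parental was above 0 in 36 of the 41 genes, against 49.4% of the 20649 genes tested, whose median was -0.0047. Values ran between -0.25 for CDT1 and 0.73 for POLE2. edgeR's quasi-likelihood test with Benjamini-Hochberg adjustment over all genes called 0 of the 41 at an adjusted p under 0.05, where 0.203% of all genes were called, and the smallest adjusted p among the 41 was 0.206, for RRM2. At an unadjusted p under 0.05, 10 genes were higher in K13A and 0 lower, against 4.3% and 6.68% of all genes. DESeq2 called 2 of the 41, RRM2 and UHRF1, with 0.954% of all genes called higher. By limma-voom 0 were called, where 0.00969% of all genes were called higher and 0.0436% lower. Without the filter on low counts edgeR called 5, MCM10, GINS1, FEN1, RRM2 and UHRF1, with 0.999% of all genes called higher.

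In 21 of the 41 genes every K13A library lay above both parental libraries, which was so for 13.6% of all genes tested. CDT1 was the single gene with every K13A library below both parental libraries, as were 14.9% of all genes, and the groups overlapped in the other 19. The margin was small in most of the 21: the ratio of the lowest K13A library to the highest parental library was 1.07 at the median and ran between 1.001 for RPA2 and 1.36 for RRM2. RRM2, UHRF1, GINS3, CCNE2 and CCNE1 had the widest margins, all at or above 1.24.

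**Figure D1:**
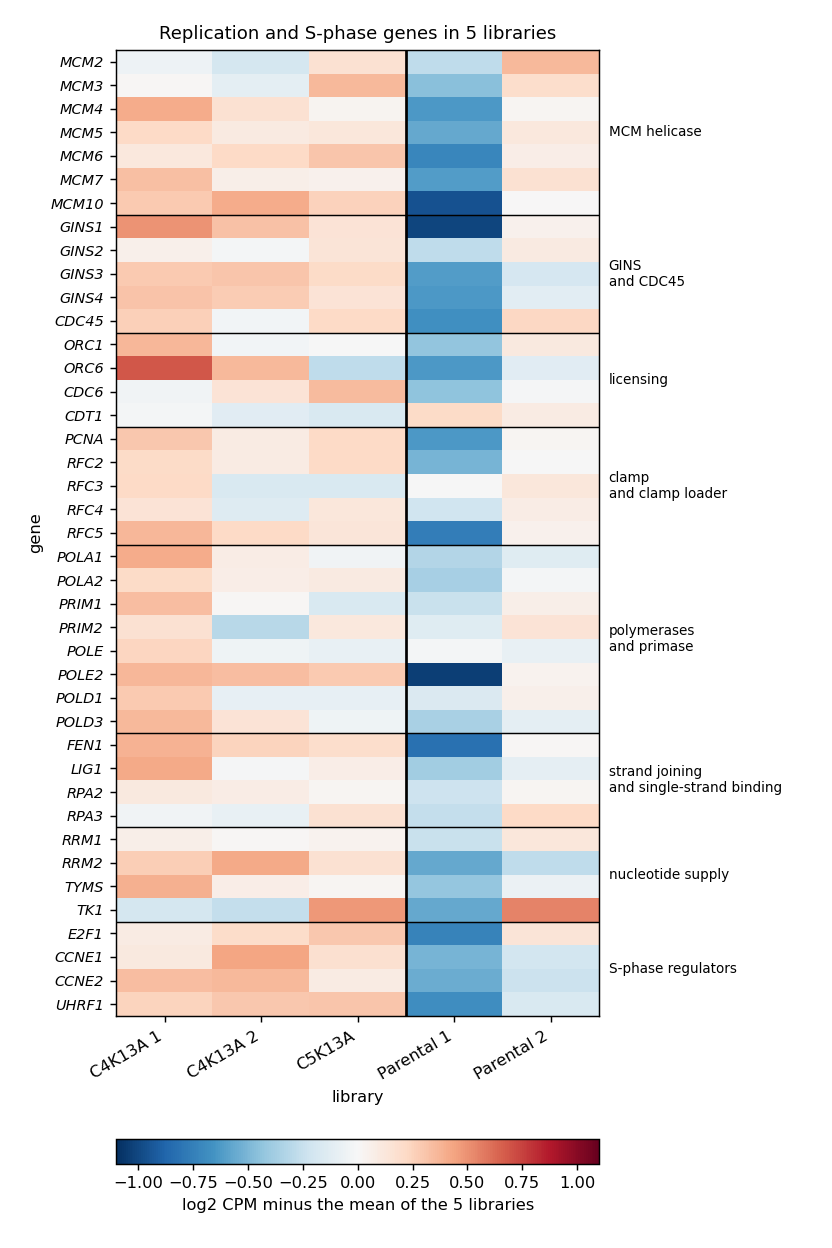
Level of each of the 41 replication genes in each library, as log2 CPM minus the mean of the 5 libraries for that gene, with rows grouped by role and the K13A libraries left of the parental libraries. Parental library 1 is the lowest column in 37 of the 41 rows, and CDT1 is the row that is highest there.

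The parental libraries were far apart for these genes, and parental library 1 was the lower of the pair. It was the lowest of the 5 libraries in 37 of the 41 genes, against 28.2% of all genes tested, and C4K13A library 1 was the highest in 24, against 18.4% of all genes. Summed over the 41 genes, levels were 3847, 3517 and 3715 CPM in K13A libraries, against 2444 and 3615 CPM in parental libraries. The summed level of parental library 2 thus lay inside the K13A range, while that of library 1 lay below it. Parental library 2 exceeded parental library 1 in 39 of 41 genes, against 49.6% of all genes tested. The ratio was 1.396 at the median and between 0.92 for CDT1 and 2.15 for TK1, and it was over 1.5 in 15 genes. Parental library 2 was below every K13A library in 22 genes, inside their range in 14 and above all of them in 5, and parental library 1 was below every K13A library in 37. No share over all genes is given for these positions, so their counts are not read as a result about the replication genes. In such bulk samples fewer cells in S phase and less of these mRNAs per cell cannot be told apart.

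The size of the K13A difference depended on which parental library was in the fit. Without parental library 1 the median log2 fold change of the 41 genes was 0.15, 28 were above 0, and 2 were higher at an unadjusted p under 0.05, against 2.51% of all genes. Without parental library 2 the median was 0.61, 39 were above 0, and 26 were higher at an unadjusted p under 0.05, against 9.5% of all genes. The genes that were above 0 with all libraries and below 0 without parental library 1 were MCM3, MCM7, GINS2, CDC45, RFC4, POLD1, RPA3 and RRM1, and those that were below 0 and turned positive without parental library 2 were MCM2, PRIM2 and TK1. Each of these fits holds a single parental library, so calls in them are not read as a result about the replication genes. Set library by library against parental library 2, the median log2 difference was 0.26 for C4K13A library 1, 0.09 for C4K13A library 2 and 0.08 for C5K13A. Against parental library 1 those medians were 0.78, 0.59 and 0.66, so the distance of each K13A library to the lower parental library was the larger in all 3.

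**Figure D2:**
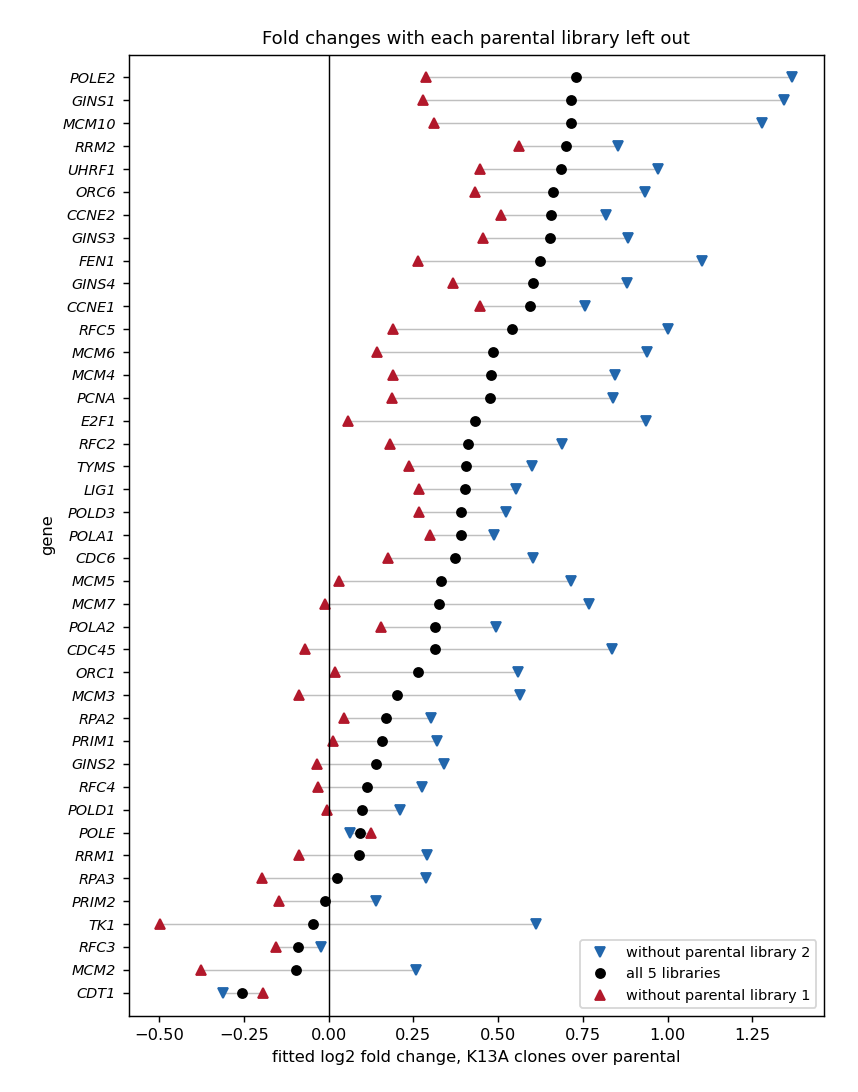
Fitted log2 fold change of K13A over parental for each of the 41 genes, with all 5 libraries and with each parental library left out. The points without parental library 2 lie to the right of those without parental library 1, except for POLE and CDT1, and the medians are 0.61 and 0.15.

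The libraries also differed in residual mitochondrial ribosomal RNA. C4K13A library 1 and parental library 1 were below 200 CPM of it and the other 3 libraries above. For C4K13A and the parental line this split is the same as that by replicate number, so the residual RNA and the replicate number cannot be told apart there. Within the libraries below 200 CPM, C4K13A library 1 exceeded parental library 1 by a median log2 difference of 0.78, with 40 of 41 genes above 0, against 10252 of 20649 genes tested. Within those above 200 CPM, the mean of C4K13A library 2 and C5K13A exceeded parental library 2 by 0.11, with 25 of 41 above 0, against 9865 of 20649 genes tested. With the side of 200 CPM as a covariate in the fit the median was 0.40, and the part of this RNA in the result was not tested.

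Promoter sequence shared by the genes was read from RefSeq windows on GRCh38.p14, 250 bases before to 50 after each gene's start, which 34 of the 41 genes had; MCM4, MCM5, GINS4, POLD3, RPA2, RPA3 and CCNE2 had none in the table. An E2F motif, searched on both strands as TTTCCCGC, TTTGGCGC, TTTCGCGC or TTTGCCGC, was in 19 of the 34 windows (55.9%), against 3.33% of all 27305 windows in the table. The CCAAT box, the site of NF-Y, was in 19 (55.9%) on either strand, against 35.7% of all windows, and 11 windows held both motifs. The cell-cycle homology region motif (CHR; TTTGAA or TTCGAA), found in promoters of mitotic genes, was in 2 (5.88%), against 16.6% of all windows; the motifs may overlap. A list of 20 mitotic genes had an E2F motif in 2 of 16 windows (12.5%) and a CHR motif in 12 (75%). The median log2 fold change of K13A over parental was 0.39 for the 19 genes with an E2F motif and 0.31 for the 15 without it, and parental library 1 was the lowest library in 16 of the 19 and 14 of the 15. A window without a match to these exact strings does not show that the gene lacks an E2F site.

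Windows are printed for the 3 genes with the smallest p in all K13A against parental among those with an E2F motif, 5′ to 3′ on the gene's strand, with E2F motifs and CCAAT boxes (CCAAT, or ATTGG on the other strand) in capitals. They lie at chr19:4909251-4909550 for UHRF1, chr16:58392221-58392520 for GINS3 and chr20:25407423-25407722 for GINS1, all on the plus strand.
UHRF1: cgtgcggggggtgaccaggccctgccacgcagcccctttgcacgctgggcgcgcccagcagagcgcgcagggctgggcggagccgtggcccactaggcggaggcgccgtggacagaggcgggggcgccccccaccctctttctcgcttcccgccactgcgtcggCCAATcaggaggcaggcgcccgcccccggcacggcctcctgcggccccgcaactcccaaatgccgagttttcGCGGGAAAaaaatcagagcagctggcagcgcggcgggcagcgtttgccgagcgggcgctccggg
GINS3: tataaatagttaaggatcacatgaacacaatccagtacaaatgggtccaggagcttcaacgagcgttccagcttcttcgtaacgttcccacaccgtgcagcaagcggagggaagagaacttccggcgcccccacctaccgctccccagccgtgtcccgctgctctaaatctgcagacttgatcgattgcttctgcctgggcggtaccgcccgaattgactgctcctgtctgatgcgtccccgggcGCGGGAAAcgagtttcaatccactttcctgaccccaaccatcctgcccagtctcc
GINS1: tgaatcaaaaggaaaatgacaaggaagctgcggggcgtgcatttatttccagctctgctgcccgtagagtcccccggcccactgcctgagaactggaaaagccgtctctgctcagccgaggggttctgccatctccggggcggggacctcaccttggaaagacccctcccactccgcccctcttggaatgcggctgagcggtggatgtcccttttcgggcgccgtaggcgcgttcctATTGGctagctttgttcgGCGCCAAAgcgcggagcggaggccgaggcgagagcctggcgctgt

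The E2F sites of the MCM ring promoters that hold a match are shown as 28-base stretches around the first match in each window, with matches in capitals, since these genes make a single complex. The stretches are chr3:127598403-127598430 on the plus strand for MCM2, and on the minus strand chr6:52284899-52284926 for MCM3, chr2:135876578-135876605 for MCM6 and chr7:100101567-100101594 for MCM7.
MCM2: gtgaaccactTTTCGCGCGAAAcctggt
MCM3: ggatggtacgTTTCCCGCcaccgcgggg
MCM6: gggctttgcaTTTGGCGCGAAAtccctt
MCM7: agctcggaccGCGGGAAAcccggcgcct

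In MCM2 and MCM6 the match on each strand overlaps its neighbour, so that the capitals form a longer run that reads similarly on both strands. A match describes the letters in these windows and does not show binding.

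**Figure D3:**
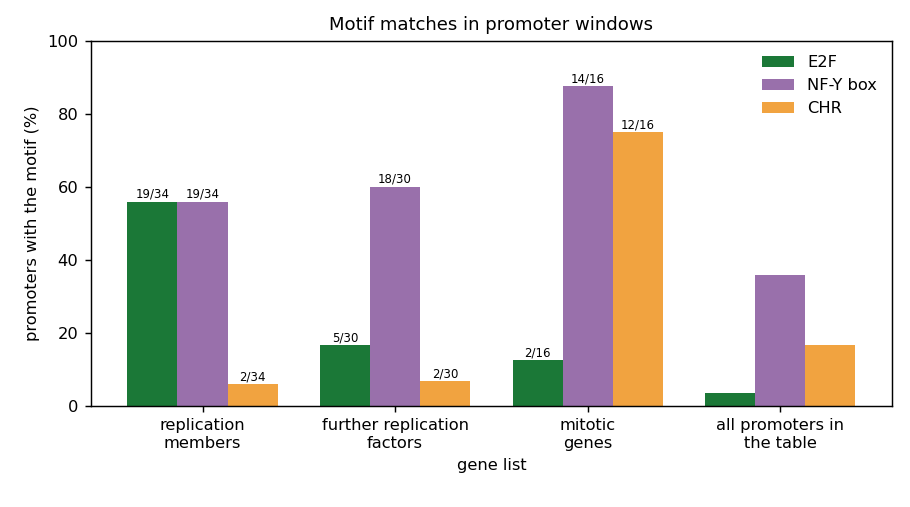
Percent of promoter windows with an E2F motif, a CCAAT box (NF-Y box) or a CHR motif, for the 34 replication genes with a window, further replication factors, mitotic genes and all 27305 windows, with counts above the bars of the gene lists. E2F matches are in 55.9% of windows of the replication genes and in 3.33% of all windows.

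MCM2 to MCM7 form the replicative helicase, and MCM10 is needed to activate it. MCM10 showed the largest difference of the 7 MCM genes, with 60.5, 65.5 and 58.9 CPM in K13A libraries, against 25.4 and 49.7 CPM in parental libraries. All 3 K13A libraries were above both parental libraries, and parental library 1 was the lowest by far; the fitted log2 fold change was 0.71 ± 0.26 (SE), with an adjusted p of 0.389 by edgeR's quasi-likelihood test. MCM4 had 290.0, 246 and 223 CPM in K13A libraries, against 141 and 222 CPM in parental libraries (0.48 ± 0.22, adjusted p 0.482 by edgeR). MCM6 had 76.7, 82.2 and 87.6 CPM in K13A libraries, against 42.9 and 74.4 CPM in parental libraries (0.49 ± 0.23, adjusted p 0.490 by edgeR). The groups did not overlap in MCM4 or MCM6, although the lowest K13A value of MCM4, in C5K13A, was next to that of parental library 2. The remaining ring subunits MCM2, MCM3, MCM5 and MCM7 overlapped between groups, with log2 fold changes between -0.10 for MCM2 and 0.33 for MCM5 and MCM7. Parental library 1 was lowest in all 7.

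GINS1 to GINS4 and CDC45 complete the helicase, and their median log2 fold change was 0.60, below only the 0.62 of the S-phase regulators among the role groups. GINS1 had 99.5, 88.4 and 78.7 CPM in K13A libraries, against 35.1 and 73.2 CPM in parental libraries (0.72 ± 0.29, adjusted p 0.430 by edgeR). GINS3 had 15.9, 16.1 and 15.1 CPM in K13A libraries, against 8.53 and 11.4 CPM in parental libraries (0.65 ± 0.20, adjusted p 0.296 by edgeR). GINS4 had 33.2, 32.5 and 29.7 CPM in K13A libraries, against 17.3 and 24.6 CPM in parental libraries (0.60 ± 0.19, adjusted p 0.313 by edgeR). In all 3 the K13A libraries were above both parental libraries. GINS2 and CDC45 overlapped between groups, with log2 fold changes of 0.14 and 0.31. GINS3 and GINS4 share exon bases with genes on the opposite strand, and no label says whether counting used strand.

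Of the 4 licensing factors, 0 had every K13A library above both parental libraries, where 13.6% of all genes tested did. A count of 0 of 4 therefore does not set them apart. ORC6, the small subunit of the origin recognition complex, had 39.8, 31.8 and 20.4 CPM in K13A libraries, against 16.1 and 22.7 CPM in parental libraries (0.66 ± 0.29, adjusted p 0.461 by edgeR). The C4K13A libraries were above both parental libraries and C5K13A lay between the parental libraries. CDC6, the loading ATPase, had 67.6, 77.2 and 88.7 CPM in K13A libraries, against 51.4 and 68.9 CPM in parental libraries (0.37 ± 0.19, adjusted p 0.513 by edgeR), and overlapped only through C4K13A library 1. CDT1, its partner in loading MCM rings, had 158, 147 and 143 CPM in K13A libraries, against 185 and 171 CPM in parental libraries. It was the gene in the set with the lowest fold change, at -0.25 ± 0.14 (adjusted p 0.558 by edgeR), and the single gene at its highest in parental library 1. ORC1, the largest subunit, was at a log2 fold change of 0.26 and overlapped.

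PCNA, the clamp, had 185, 160.4 and 175 CPM in K13A libraries, against 97.0 and 152 CPM in parental libraries (0.48 ± 0.21, adjusted p 0.461 by edgeR). RFC2, a subunit of the clamp loader, had 85.4, 78.7 and 85.7 CPM in K13A libraries, against 51.7 and 73.5 CPM in parental libraries (0.41 ± 0.18, adjusted p 0.462 by edgeR). RFC5, another loader subunit, had 44.4, 40.1 and 37.7 CPM in K13A libraries, against 20.4 and 35.7 CPM in parental libraries (0.54 ± 0.24, adjusted p 0.462 by edgeR). The groups did not overlap in these 3 genes, though parental library 2 was close to the lowest K13A library in each. The loader subunits RFC3 and RFC4 overlapped, at -0.09 and 0.11, and whether their values differ from those of RFC2 and RFC5 was not tested. PCNA, RFC3 and RFC5 have pseudogenes that bear their names, and counting could have split reads between the copies.

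POLE2, an accessory subunit of polymerase epsilon, had the largest fitted value in the set. It had 13.2, 12.9 and 12.5 CPM in K13A libraries, against 4.99 and 10.5 CPM in parental libraries (0.73 ± 0.31, adjusted p 0.447 by edgeR), and the spread between the parental libraries exceeded that among the K13A libraries. POLA1, the catalytic subunit of polymerase alpha, had 53.9, 43.1 and 39.6 CPM in K13A libraries, against 32.5 and 37.0 CPM in parental libraries (0.39 ± 0.18, adjusted p 0.481 by edgeR). POLD3, a polymerase delta subunit, had 35.7, 30.9 and 26.8 CPM in K13A libraries, against 21.7 and 25.9 CPM in parental libraries (0.39 ± 0.18, adjusted p 0.482 by edgeR). These 3 and POLA2 did not overlap between groups, although POLA2 shares 2012 exon bases with a gene on its own strand and POLD3 shares 123. The primase subunits PRIM1 and PRIM2 and the catalytic subunits POLE and POLD1 overlapped, with log2 fold changes between -0.01 for PRIM2 and 0.16 for PRIM1. C4K13A library 1 was the highest of the 5 libraries in all 8 polymerase and primase genes.

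FEN1, the nuclease that trims Okazaki fragments, had 129, 118 and 113 CPM in K13A libraries, against 56.1 and 100.1 CPM in parental libraries (0.62 ± 0.24, adjusted p 0.410 by edgeR). LIG1, the ligase that joins them, had 36.3, 27.1 and 28.6 CPM in K13A libraries, against 20.9 and 25.5 CPM in parental libraries (0.40 ± 0.19, adjusted p 0.485 by edgeR). RPA2, a subunit of the protein that coats single-stranded DNA, had 45.5, 44.7 and 43.07 CPM in K13A libraries, against 36.1 and 43.02 CPM in parental libraries (0.17 ± 0.15, adjusted p 0.726 by edgeR). FEN1 and LIG1 stood clear of both parental libraries, while RPA2 did so by a margin of 1.001 times. FEN1 has 1 pseudogene that bears its name and RPA2 has 3. RPA3, a further subunit of the same protein, overlapped, at 0.03.

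RRM2, the small subunit of ribonucleotide reductase that rises in S phase, had the smallest p in the set. It had 212, 234 and 197 CPM in K13A libraries, against 119 and 145 CPM in parental libraries, the widest margin between the groups among the 41 genes. Its log2 fold change was 0.70 ± 0.17, with an unadjusted p of 0.00294 and an adjusted p of 0.206 by edgeR. RRM1, the large subunit of the same enzyme, had 119.5, 115 and 117 CPM in K13A libraries, against 96.1 and 125 CPM in parental libraries (0.09 ± 0.16, adjusted p 0.878 by edgeR), and its K13A libraries lay between the parental libraries. TYMS, thymidylate synthase, had 77.2, 62.0 and 59.5 CPM in K13A libraries, against 43.8 and 56.2 CPM in parental libraries (0.41 ± 0.19, adjusted p 0.475 by edgeR). TYMS did not overlap between groups, but it shares 1150 exon bases with ENOSF1 and TYMSOS on the opposite strand, and RRM2 shares 1077 with a gene on its own strand. RRM2 has 3 pseudogenes that bear its name and TYMS has 2, and counting could have split reads between the copies. TK1, thymidine kinase, which was singled out after its values were seen, had 192, 183 and 305 CPM in K13A libraries, against 148 and 319.6 CPM in parental libraries (-0.05 ± 0.34, adjusted p 0.978 by edgeR). The libraries of TK1 formed no order by genotype, since C5K13A and parental library 2 were the high pair.

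UHRF1, which brings the maintenance DNA methyltransferase to newly copied DNA, had 84.7, 87.6 and 88.0 CPM in K13A libraries, against 44.3 and 63.6 CPM in parental libraries (0.69 ± 0.18, adjusted p 0.244 by edgeR). CCNE1, cyclin E1, had 16.4, 20.6 and 17.2 CPM in K13A libraries, against 10.7 and 13.2 CPM in parental libraries (0.59 ± 0.20, adjusted p 0.334 by edgeR). CCNE2, cyclin E2, had 15.3, 15.4 and 12.8 CPM in K13A libraries, against 8.22 and 10.2 CPM in parental libraries (0.65 ± 0.20, adjusted p 0.303 by edgeR). The groups did not overlap in these 3 regulators, and parental library 2 lay between parental library 1 and the K13A libraries in each. CCNE2 shares 1633 exon bases with INTS8 and another gene on the opposite strand. E2F1, the transcription factor that drives many genes of the set, was at 0.43 ± 0.25 (adjusted p 0.566 by edgeR) and overlapped between groups.

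**Figure D4:**
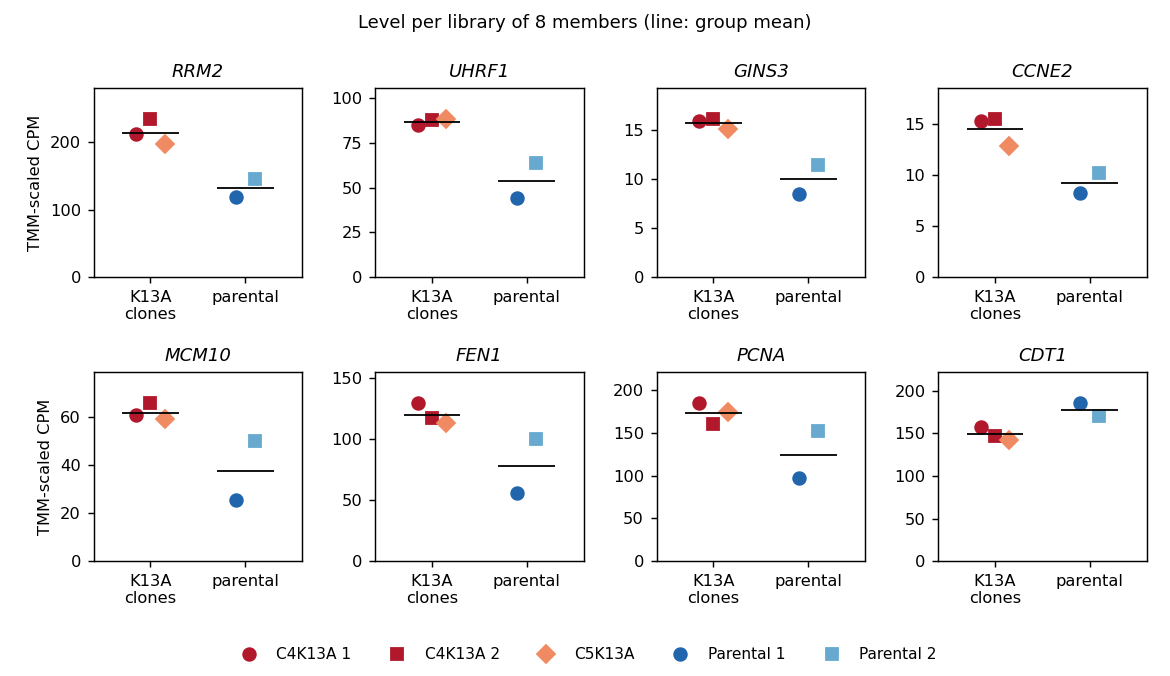
CPM of 8 replication genes in each of the 5 libraries, on linear axes that start at 0, with K13A libraries left of parental libraries and a line at each group's mean. RRM2 and UHRF1 show K13A libraries clear of both parental libraries, and CDT1 shows them below.

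Taken clone by clone, C4K13A and C5K13A each stood above the parental line by similar medians, and the comparisons share the same parental libraries. For C4K13A the median log2 fold change was 0.38 with 35 of 41 above 0, against 48.9% of 22743 genes, and for C5K13A it was 0.31 with 36 of 41 above 0, against 47.1%. edgeR called 0 of the 41 in C4K13A, where 0.699% of all genes were called, and 0 in C5K13A, where 0.0484% were. At an unadjusted p under 0.05, 12 genes were higher in C4K13A against 4.27% of all genes, and 3 in C5K13A against 2.09%. DESeq2 called ORC6 and RRM2 in C4K13A, with 0.954% of all genes called higher. By limma-voom 0 were called in C4K13A, where 0.0616% of all genes were called higher and 0.317% lower. C5K13A has a single library, and its calls by these methods are not read as a result about the replication genes. edgeR without the filter called MCM10, GINS1, ORC6, RRM2 and UHRF1 in C4K13A, with 1.11% of all genes called higher.

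Replication genes were called in the clone comparisons when parental library 2 was left out. In C4K13A, 18 of the 41 were called higher by edgeR, against 3.28% of all genes, namely MCM4, MCM5, MCM6, MCM7, MCM10, GINS1, GINS3, GINS4, CDC45, ORC6, PCNA, RFC5, POLE2, FEN1, RRM2, E2F1, CCNE2 and UHRF1. In C5K13A the same fit called 8 higher, against 1.43% of all genes, but it sets 1 C5K13A library against 1 parental library, so these 8 have no replicate check. Leaving out parental library 1 instead gave 0 calls by edgeR in either clone, with medians of 0.16 for C4K13A and 0.082 for C5K13A. Of all genes, 0.254% were then called higher in C4K13A and 0.0277% in C5K13A, so 0 of 41 does not set these genes apart. At an unadjusted p under 0.05, 6 genes were higher in C4K13A, against 5.08% of all genes, and 2 lower, MCM2 and TK1, against 7.45%. In C5K13A, 2 were higher, RRM2 and UHRF1, against 2.43% of all genes. In each of these fits the spread comes from the C4K13A pair alone, and the lone parental and C5K13A libraries are assumed to vary like it.

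The clones were also set against each other, without the parental line in the contrast. The median log2 difference of C5K13A over C4K13A was -0.09, with 15 of 41 genes above 0, against 47.1% of all genes. None of the 41 was called by edgeR, where 0.066% of all genes were, and the adjusted p by edgeR was 0.723 or more. DESeq2 called 0 of the 41, where 101 of 22743 genes were called higher and 78 lower. By limma-voom 0 of all genes were called. ORC6 was the single gene at an unadjusted p under 0.05, at -0.80 ± 0.29 (unadjusted p 0.0258 by edgeR). A count of 1 of 41 is near the 2.93% of all genes that were lower, so it does not set these genes apart. TK1 had the largest value in the other direction, at 0.71 ± 0.39 (adjusted p 0.842 by edgeR).

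Levels of subunits of the same complex were compared per kilobase of merged exons. In the MCM ring, MCM7 was highest, at 74.7 ± 16.4 CPM per kb (SD, n = 5 libraries), followed by MCM2 at 52.3 ± 9.68, MCM3 at 44.6 ± 9.22, MCM4 at 32.2 ± 7.76, MCM5 at 24.6 ± 4.68 and MCM6 at 17.7 ± 4.24 CPM per kb. That order held in all 5 libraries, whereas the ranges over libraries of neighbours in it overlapped. The order rests on the merged exon lengths used, such as 3650 bases for MCM3 and 6973 for MCM4. In CPM not divided by length MCM4 was above MCM3 in all 5 libraries. In GINS, GINS1 was highest, at 18.4 ± 6.01 CPM per kb, and GINS3 lowest, at 2.63 ± 0.65 CPM per kb. RRM2 was above RRM1 per kilobase in all 3 K13A libraries, at 39.8, 43.9 and 37.0 CPM per kb for RRM2 and 28.6, 27.6 and 28.1 for RRM1. In the parental libraries RRM2 was below RRM1, at 22.3 and 27.2 CPM per kb for RRM2 and 23.0 and 29.9 for RRM1. The order in the parental libraries rests on the merged exon lengths used, 5323 bases for RRM2 and 4177 for RRM1. RRM2 shares 1077 of those bases with another gene on its strand. In CPM not divided by length RRM2 was above RRM1 in the parental libraries too, at 119 and 145 against 96.1 and 125.

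**Figure D5:**
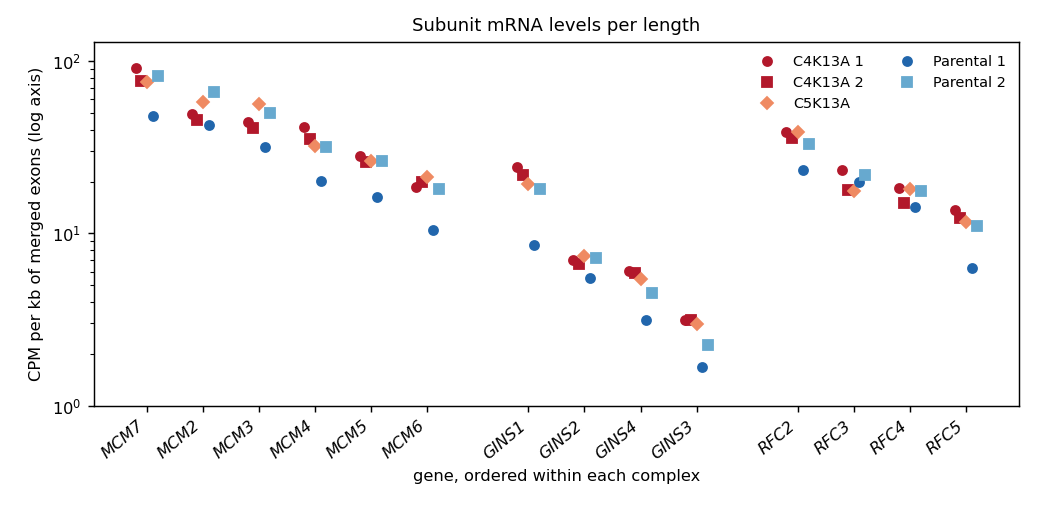
Level per kilobase of merged exons on a log axis for the subunits of the MCM ring, GINS and the clamp loader, with 1 point per library. The order MCM7, MCM2, MCM3, MCM4, MCM5, MCM6 is the same in all 5 libraries, and parental library 1 is the lowest point for most subunits. That order rests on the exon lengths used, since in undivided CPM MCM4 is above MCM3 in all 5 libraries.

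Other genes of DNA replication and of the G1 to S transition lay mostly in the same direction, with no call by edgeR. Of 37 further replication factors, 28 were above 0, against 49.4% of all genes, with a median log2 fold change of 0.26. At an unadjusted p under 0.05, 4 were higher, against 4.3% of all genes. By edgeR 0 were called, where 0.203% of all genes were. DESeq2 called 1, CLSPN, where it called 0.954% of all genes higher. By limma-voom 0 were called, where 0.00969% of all genes were called higher and 0.0436% lower. CLSPN, an adaptor of the replication checkpoint, had 42.001, 40.5 and 38.2 CPM in K13A libraries, against 18.1 and 23.8 CPM in parental libraries (0.94 ± 0.17, unadjusted p 6.54e-04, adjusted p 0.126 by edgeR). TICRR, which helps load CDC45, had 59.6, 46.2 and 40.4 CPM in K13A libraries, against 27.1 and 36.7 CPM in parental libraries (0.61 ± 0.22, adjusted p 0.367 by edgeR). Both genes had all K13A libraries above both parental libraries, and the fitted value of CLSPN exceeded that of any of the 41. Of 21 genes of E2F, retinoblastoma protein and G1/S control, 18 were above 0, with a median of 0.44. At an unadjusted p under 0.05, 7 were higher, against 4.3% of all genes, and 1 lower, which is near the 6.68% of all genes. DESeq2 called 1, CCND1, against 0.954% of all genes called higher. Both edgeR and limma-voom called 0, beside the same shares of all genes as for the further factors. CDKN2C, an inhibitor of the cyclin D kinases, had 75.9, 77.8 and 81.2 CPM in K13A libraries, against 41.7 and 59.7 CPM in parental libraries (0.63 ± 0.18, adjusted p 0.283 by edgeR). CCND1, cyclin D1, had 407, 413 and 349 CPM in K13A libraries, against 258 and 281 CPM in parental libraries (0.53 ± 0.16, adjusted p 0.285 by edgeR). The gene that was lower, CDKN1B, which encodes the kinase inhibitor p27, had 58.4, 42.4 and 39.5 CPM in K13A libraries, against 77.4 and 60.3 CPM in parental libraries (-0.56 ± 0.21, adjusted p 0.393 by edgeR). Both lists also depended on the parental library used. The median of the 37 further factors was 0.049 without parental library 1 and 0.48 without parental library 2. For the 21 G1/S genes those medians were 0.20 and 0.56.

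Mitotic genes, which are transcribed later in the cycle, were also higher in parental library 2 than in parental library 1, in 20 of 20 and by a median log2 difference of 0.74. For the replication genes this was 39 of 41 and 0.48, and of all genes tested 49.6% were higher in parental library 2. The contrast between the lists was not tested. Of the 20, 18 were above 0 in K13A over parental, against 49.4% of all genes, with a median log2 fold change of 0.38. At an unadjusted p under 0.05, 3 were higher, against 4.3% of all genes, and edgeR called 0, where 0.203% of all genes were called. DESeq2 called 0, where 0.954% of all genes were called higher and 1.73% lower. By limma-voom 0 were called, where 0.00969% of all genes were called higher and 0.0436% lower. CDK1, the mitotic kinase, had 255, 279 and 282 CPM in K13A libraries, against 72.6 and 187 CPM in parental libraries (1.07 ± 0.35, adjusted p 0.319 by edgeR). BUB1B, a spindle checkpoint kinase, had 92.2, 70.7 and 60.3 CPM in K13A libraries, against 42.7 and 60.1 CPM in parental libraries (0.53 ± 0.23, adjusted p 0.452 by edgeR). Parental library 1 was the lowest in 18 of the 20 mitotic genes, in 28 of the 37 further replication factors and in 14 of the 21 G1/S genes, against 28.2% of all genes. Without parental library 1 the mitotic median was 0.07, and without parental library 2 it was 0.89, against 0.15 and 0.61 for the replication genes. Within the libraries below and above 200 CPM of mitochondrial ribosomal RNA the mitotic medians were 1.09 and -0.06.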

How the data were processed

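RNA of 5 libraries was sequenced on an Illumina HiSeq after ribosomal RNA removal, per the labels' protocols. The authors deposited whole-number read counts per Ensembl gene, made with bcl2fastq, STAR 2.5 and featureCounts 1.4.6-p5 of the Subread package, per the submitters' processing notes; the genome build, annotation, strand setting and treatment of reads with several matches were not given in the sources used here. Reads of overlapping genes or near-identical copies therefore cannot be assigned here: 14 of the 41 genes share exon bases with a gene on the opposite strand, 6 with a gene on the same strand, and 7 have pseudogenes that bear their names.

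Identifiers were matched to symbols, chromosomes and exon lengths in GENCODE v29, which held 55297 of the 58812. Counts per gene and library were 296 to 20170 for the 41 genes, with a median of 2628. Each pair of libraries differed beyond sampling noise, with a chi-square per gene of at least 51.2, and each library was kept as a sample.

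Counts were scaled with TMM factors and tested with edgeR 4.0.16 (quasi-likelihood test, filterByExpr, Benjamini-Hochberg adjustment over all genes tested, called at an adjusted p under 0.05) in R 4.3.3. All K13A libraries against parental was a fit of 2 groups (20649 genes, 3 residual degrees of freedom); the clone comparisons came from a fit of 3 groups (22743 genes, 2 residual degrees of freedom), and the fit takes the single C5K13A library to vary as the other groups do. All 41 genes passed both filters. Standard errors are the absolute log2 fold change divided by the square root of the F statistic. On counts simulated for all K13A against parental over 19964 genes, the test recovered 28.4% of genes changed by 2-fold, 92.5% by 4-fold and 97% by 8-fold, and 8.81% of its calls were false.

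Alternatives were other scaling factors, no filter or one at 5 CPM, DESeq2 1.42.0, limma-voom (limma 3.58.1), leaving out genes of mitochondrial, small and ribosomal RNA, a mitochondrial ribosomal RNA covariate, other groupings of libraries, the replicate number as a block, and leaving out each library. The members and lists were chosen with earlier results of these data known, so lists are described by counts and medians beside the same over all genes. Values in every library are given for the 3 genes of each role with the smallest unadjusted p in all K13A against parental and for any called gene; from the other lists the 2 with the smallest p are named. CDKN1B, E2F1, TK1, MCM2 in C4K13A without parental library 1 and ORC6 in the contrast of the clones were added after their values were seen.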

Additional observations from a re-analysis of the deposited data

How the results depend on the processing

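The number of genes called depended on the processing. For all K13A against parental (42 genes) it was 1167 without the filter, 2 with the filter at 5 CPM, 555 with DESeq2, 11 with limma-voom, 71 with the ribosomal RNA covariate, 105 in the 3-group fit and 11 with the C4K13A libraries summed, and 0 to 130 when 1 library was left out; the 0 came without parental library 1, where edgeR had 1194 genes at an unadjusted p under 0.05. For C4K13A (159) it was 1346 without the filter, 32 at 5 CPM, 745 with DESeq2, 86 with limma-voom and 777 with the covariate, and 142 to 1667 with 1 library left out. For C5K13A (11) it was 578 without the filter, 0 at 5 CPM (704 at an unadjusted p under 0.05), 230 with DESeq2, 0 with limma-voom (1133 unadjusted), 7 without mitochondrial, small and ribosomal RNA genes and 105 with the covariate, and 41 to 668 with 1 library left out. For C5K13A against C4K13A (15) it was 7 with upper-quartile factors, 423 without the filter, 0 at 5 CPM (833 unadjusted), 179 with DESeq2, 0 with limma-voom (1104 unadjusted) and 92 with the covariate, and 51 to 155 with 1 library left out; 9 were higher and 6 lower, against 5 and 2 with upper-quartile factors. The cause was not tested.

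Replication genes called (0 in each comparison) numbered 5 without the filter and 2 with DESeq2 for all K13A, and 0 with any library left out; 5 without the filter and 2 with DESeq2 for C4K13A, and 0 to 18 with 1 library left out; and 0 to 8 with 1 library left out for C5K13A, where the 8 came from 1 C5K13A library against 1 parental library. Their median log2 fold change ranged from 0.15 to 0.61 for all K13A, 0.16 to 0.66 for C4K13A, 0.082 to 0.67 for C5K13A and -0.09 to 0.0043 for C5K13A against C4K13A as 1 library was left out. Without parental library 1 and without parental library 2, RRM1 was at -0.088 and 0.29 for all K13A, -0.089 and 0.29 for C4K13A and -0.086 and 0.29 for C5K13A, and ORC6 in C5K13A at -0.15 and 0.35; each of these had a positive value with all libraries. For all K13A, 352 values of the 24 genes named by role and p kept their direction and their side of the threshold over the alternatives, 7 passed it and 1 reversed. Outside those 24, TK1 kept its sign in 9 of 15 alternatives. MCM2, MCM3, MCM7, GINS2, CDC45, RFC4, POLD1, RPA3 and PRIM2 turned sign when a parental library was left out. Of these, RPA3 and PRIM2 kept their sign in 11 of 15 alternatives and POLD1 in 13, so they turned in other alternatives too. POLE kept its sign in 14 of 15, and turned in an alternative that kept both parental libraries.

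Replicate numbers link C4K13A and parental libraries, but no label says that they mark a shared culture or day, and there are 2 pairs. The deviations of same-numbered libraries correlated at 0.15 across genes and 0.23 over the 41. In these libraries the replicate block is the same split as the mitochondrial ribosomal RNA covariate, so they are not separate checks. With the replicate block edgeR called 885 genes in C4K13A against parental, with 1.36% of all genes called higher and 2.99% lower. Of the 41 replication genes 2 were called higher, ORC6 and RRM2, which is 4.88%. C5K13A carries no number. With 3 residual degrees of freedom at most, changes near 2-fold were often missed in simulated data.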
